A study of Mus musculus with 3 samples.

Results

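The cells described here are 566 goblet cells with high Mptx1, Retnlb and Klk1 among 12653 cells of the mouse small intestine. They were selected on measured values. In each library the 16% of cells with the highest summed values of Agr2, Fcgbp, Spink4, Tff3, Zg16 and Clca1 were taken (2024 cells), and 54 of them were dropped for cycling genes (17) or defensins (37). In the 1970 cells left, called goblet-sum cells below, the mean values of 3 panels were standardized over all of these cells, and each cell went to its highest panel. Mptx1, Retnlb and Klk1 were highest in 566 cells, called Retnlb/Mptx1 cells. The panel of Ccl9, Reg4 and Fkbp11 was highest in 619 cells and that of Ido1, Tm4sf4 and Gsta4 in 785 cells. All levels of these panel genes, and all differences between the 3 kinds of goblet-sum cell, follow from or go with this choice and are given as descriptions.

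Goblet cells secrete the gel-forming mucin Muc2 and small proteins that act in the mucus layer. Retnlb encodes RELMβ, a secreted protein of goblet cells that kills Gram-negative bacteria and is induced by type 2 cytokines during worm infection. Mptx1 encodes a mucosal pentraxin, a secreted protein of the same family as C-reactive protein, and Klk1 encodes tissue kallikrein, a serine protease. Guca2a encodes guanylin, a peptide that acts on the guanylate cyclase receptor of neighbouring epithelial cells, and Ccl6 encodes a chemokine. Paneth cells, which share the secretory lineage with goblet cells, sit at the crypt base and secrete lysozyme and α-defensins.

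The mice were male ICR mice, an outbred strain, 3 weeks old at the start. AOS 0 mice received no busulfan and were gavaged with vehicle. B + A 0 mice received 1 injection of busulfan, an alkylating anticancer drug, at 40 mg/kg and then vehicle, and B + A 10 mice received the same busulfan dose and alginate oligosaccharides (AOS) at 10 mg/kg. The gavage was given daily for 2 weeks. The cells of 6 mice were combined in each group and made into 1 droplet library, so each comparison between groups is a comparison of 2 libraries with no replicate check, and no test was made. The title, description and treatment labels of the 3 samples match each other, while another label field names the B + A 0 library AOS10 and the B + A 10 library B+A0; the first 3 were followed. Values given in threes below stand for AOS 0 first, B + A 0 next and B + A 10 last. The libraries held 4106, 3195 and 5352 cells, with medians of 7371, 6407 and 3505 UMIs (unique molecular identifiers, 1 for each captured RNA molecule) per cell, and 17 to 34 cell barcodes were shared between pairs of libraries.

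AOS 0 had 172 Retnlb/Mptx1 cells of 641 goblet-sum cells (26.8%, 95% exact binomial interval 23.4 to 30.4). B + A 0 had 155 of 500 (31.0%, 27.0 to 35.3) and B + A 10 had 239 of 829 (28.8%, 25.8 to 32.1). The difference was 4.17 percentage points for B + A 0 minus AOS 0 (-1.11 to 9.49), -2.17 for B + A 10 minus B + A 0 (-7.31 to 2.86) and 2.0 for B + A 10 minus AOS 0 (-2.65 to 6.57). No difference in this share was detectable at these cell numbers, and the intervals, here and below, cover counting error only. Of the whole libraries the Retnlb/Mptx1 cells were 4.19%, 4.85% and 4.47%. The rule took the same percentage of every library by goblet sum, before the cycling and defensin cells were dropped. The shares of the whole libraries therefore cannot show whether goblet cells became more or less abundant. Apart from the dropped cells, only the split of the goblet-sum cells among the panels could differ between libraries. The Ccl9/Reg4 cells were 38.5% of the goblet-sum cells in AOS 0 against 27.8% in B + A 0 and 28.1% in B + A 10, and the Ido1/Tm4sf4 cells 34.6%, 41.2% and 43.1%. The median depth of the Retnlb/Mptx1 cells was 7880, 6414 and 3805 UMIs. Cells with a doublet score in the highest 5% of their library were 9.30%, 6.45% and 6.69% of the Retnlb/Mptx1 cells and 9.60%, 5.22% and 7.29% of the other goblet-sum cells.

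The edge of the group was not sharp. The lowest goblet sum among the cells taken was 27.74, 30.22 and 28.71 and the highest among those left 27.72, 30.22 and 28.7. In 38, 32 and 44 of the Retnlb/Mptx1 cells the chosen panel led by less than 0.25 standard deviations, and 36, 32 and 58 of the other goblet-sum cells missed by less than that. The 114 cells just inside held a mean of 33.7 Mptx1 and 107 Retnlb UMIs per 10000, and the 126 cells just outside 47.5 and 89.2. The 341 cells that led by 0.5 or more held 176 and 159. When all cells were first thinned to 1000 UMIs, 69.2%, 73.5% and 74.9% of the Retnlb/Mptx1 cells were chosen again, and without Mptx1 in the panel 77.9%, 76.1% and 74.9% were. The cells thus lie along a gradient with the other goblet-sum cells, and a cell with much Mptx1 could fall on the other side when its other panel was also high.

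All 24 goblet markers in the table were detected in the Retnlb/Mptx1 cells. The summed level of these 24 genes was 159, 146 and 142 UMIs per 10000. In a reference of enterocytes, the absorptive cells, which were the 2024 other cells with the highest sum of 14 enterocyte genes, the same sum was 2.36, 5.23 and 3.65. In the other goblet-sum cells it was 170, 167 and 162. The cells were chosen by goblet genes and the reference by enterocyte genes, so the difference between these 2 is no check of the name. All 14 Paneth cell markers were detected as well, with a sum of 291, 218 and 300 against 28.8, 64.8 and 46.0 in the enterocyte reference. The stem cell marker Lgr5 was at 0, as were Pou2f3 and Alox5ap of the tuft cell list and Cd79a, Ms4a1 and Jchain of the B cell list. The 10 T cell markers summed to 8.55, 8.01 and 10.4 in the Retnlb/Mptx1 cells, to 3.38, 12.5 and 12.9 in the other goblet-sum cells and to 4.80, 10.7 and 11.1 in the enterocyte reference.

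Of the genes that set these cells apart, Mptx1 (chr1:174330518-174332873, plus strand), Reg1 (chr6:78422711-78428667, plus strand) and Sval1 (chr6:41951630-41956098, plus strand; GENCODE annotation, GRCm38) had a promoter entry in the RefSeq table and were more than 1.5-fold above the Ccl9/Reg4 cells in every library. Their 250 bases before the start site are shown because these genes stood apart from the nearest kind of goblet-sum cell. Capitals mark matches on either strand to AGATAA (the GATA factor core), TTTATNG (a CDX type site) or TTC and GAA with 4 bases between them (a STAT type site).
Mptx1, chr1:174330268-174330517, plus strand: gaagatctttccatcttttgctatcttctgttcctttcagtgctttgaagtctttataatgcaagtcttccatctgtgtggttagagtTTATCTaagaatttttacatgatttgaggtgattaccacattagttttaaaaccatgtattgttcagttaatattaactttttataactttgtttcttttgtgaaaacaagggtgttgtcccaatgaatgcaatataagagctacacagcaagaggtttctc
Reg1, chr6:78425733-78425982, plus strand: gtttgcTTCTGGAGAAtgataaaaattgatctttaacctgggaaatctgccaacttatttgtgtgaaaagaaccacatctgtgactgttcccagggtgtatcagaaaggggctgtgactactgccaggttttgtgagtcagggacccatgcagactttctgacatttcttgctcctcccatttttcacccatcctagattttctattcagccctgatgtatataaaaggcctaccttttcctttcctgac
Sval1, chr6:41951378-41951627, plus strand: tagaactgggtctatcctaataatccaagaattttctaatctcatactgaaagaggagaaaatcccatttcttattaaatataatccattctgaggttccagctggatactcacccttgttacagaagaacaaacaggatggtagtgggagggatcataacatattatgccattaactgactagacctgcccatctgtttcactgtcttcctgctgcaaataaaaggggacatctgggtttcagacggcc
Mptx1 had 1 GATA match, 162 to 157 bases before the start site, and Reg1 had 1 STAT type match, 244 to 235 bases before it. Sval1 had no match in this window. Of 32841 promoters of the same length, 9.99% held the GATA letters, 9.81% the CDX letters and 5.85% the STAT letters. No motif was common to the 3 windows. The start site of the Mptx1 and Reg1 windows is also a GENCODE start site, and that of Sval1 is 2 bases from the nearest one.

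Mptx1 gave the widest contrast among the panel genes. The Retnlb/Mptx1 cells held a mean of 162 UMIs per 10000 in AOS 0, of 130 in B + A 0, and of 92.5 in the B + A 10 library. In the Ccl9/Reg4 cells it was 20.2, 20.6 and 10.7, in the Ido1/Tm4sf4 cells 30.9, 25.7 and 19.5, and in the enterocyte reference 0.901, 2.75 and 1.0. The Retnlb/Mptx1 cells were highest in each library, as the rule requires. Cells with at least 1500 defensin UMIs per 10000, which the rule leaves out, held 138, 67.1 and 54.3, so Mptx1 was also abundant in these defensin cells. The level was very uneven from cell to cell. It ran from 0 over a median of 64.3 to 818 in AOS 0, from 0 over 38.1 to 1220 in the B + A 0 library and from 0 over 35.6 to 721 with AOS. After each cell was thinned to 1000 UMIs, Mptx1 was found in 70.4% (62.9 to 77.1), 71.6% (63.8 to 78.6) and 66.1% (59.7 to 72.1) of the cells. Without thinning these shares were 89.5%, 94.2% and 84.5%. The thinned share in enterocytes, which should lack the gene, was 7.0%, 15.1% and 9.46%, at median depths of 5000, 4909 and 2585 UMIs before thinning.

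**Figure D1:**
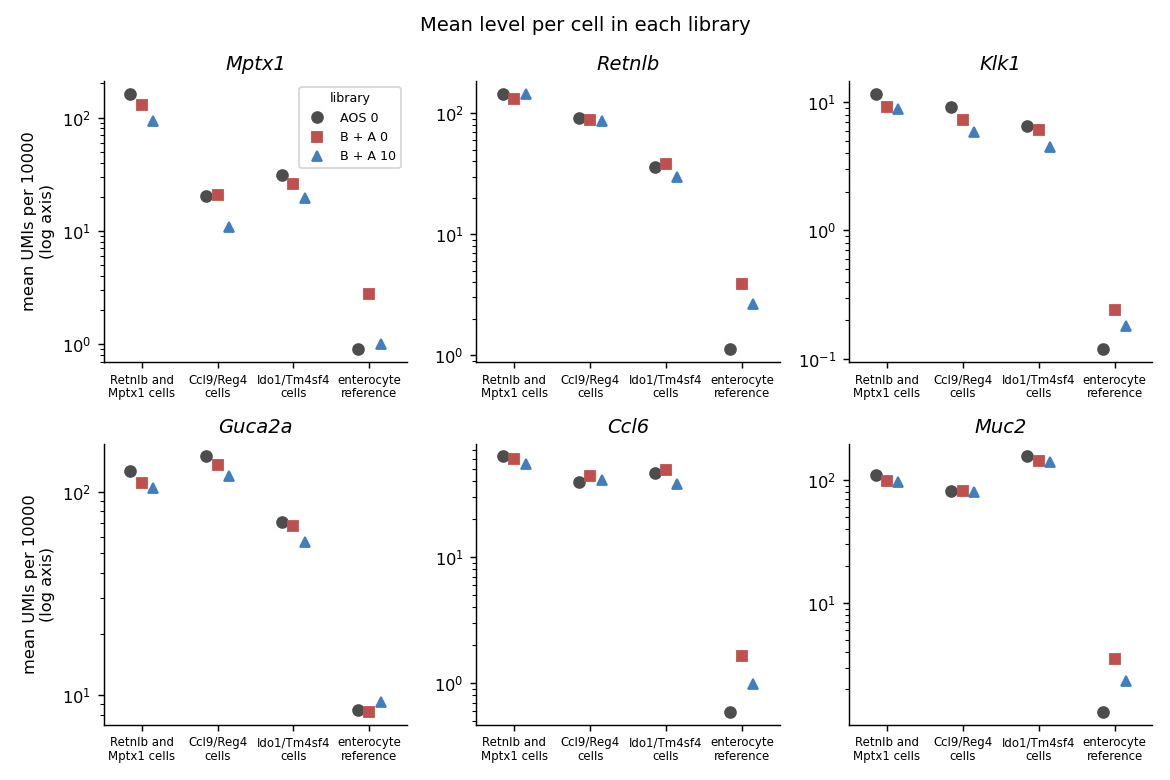
Mean UMIs per 10000 UMIs of a cell (log axis) of 6 genes in the Retnlb/Mptx1 cells, the Ccl9/Reg4 cells, the Ido1/Tm4sf4 cells and the enterocyte reference, with a point for each library and no error bar since there was 1 library per group. Mptx1 lies between 92.5 and 162 in the Retnlb/Mptx1 cells and at 30.9 or lower in the other 3 kinds of cell, while Guca2a and Muc2 are each highest in another kind of goblet-sum cell.

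Retnlb (chr16:48816856-48818892, plus strand) was found in nearly all Retnlb/Mptx1 cells and was graded across goblet-sum cells. The mean was 144, 131 and 145 UMIs per 10000. The Ccl9/Reg4 cells held 91.5, 88.4 and 86.4 and the Ido1/Tm4sf4 cells 35.8, 37.8 and 30. The lowest cells were at 8.19, 4.06 and 3.56, the medians at 103, 105 and 102 and the highest cells at 622, 716 and 736, so the medians of the 3 libraries were close. After thinning it was found in 99.4%, 100% and 97.9% of Retnlb/Mptx1 cells and in 8.83%, 27.0% and 23.0% of enterocytes. The gene marks goblet cells in general here, since 79.6% to 86.9% of the thinned Ido1/Tm4sf4 cells also held it.

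Klk1 (chr7:44225360-44229618, plus strand) differed least of the panel genes. It had a mean of 11.6, 9.18 and 8.86 UMIs per 10000 in the Retnlb/Mptx1 cells, 9.11, 7.27 and 5.88 in the Ccl9/Reg4 cells and 6.5, 6.03 and 4.48 in the Ido1/Tm4sf4 cells. In the enterocyte reference it was 0.119, 0.242 and 0.179. All 3 panel genes were found together in 43.6% (36.1 to 51.4), 36.8% (29.2 to 44.9) and 35.1% (29.1 to 41.6) of the thinned Retnlb/Mptx1 cells. In the Ccl9/Reg4 cells this share was 8.16% to 13.7% and in the Ido1/Tm4sf4 cells 8.12% to 13.1%. A further 28.4% to 33.1% of the thinned Retnlb/Mptx1 cells held Retnlb without Mptx1.

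Mptx1 followed neither of the other panel genes closely within the group. Across the Retnlb/Mptx1 cells Spearman's rho of Mptx1 with Retnlb was 0.16 (n = 172), 0.094 (n = 155) and 0.11 (n = 239), and that of Mptx1 with Klk1 was 0.0036, -0.23 and -0.22. That of Retnlb with Klk1 was 0.28, 0.29 and 0.057. Retnlb was compared with Mptx1, Klk1, Defa24, Muc2, Guca2a and Spink4 alone. Among these it went most with Spink4, a secreted protease inhibitor and a gene of the goblet sum, with rho of 0.58, 0.50 and 0.58. The cells of a library share its depth and free RNA, and the choice of cells by the sum of the panel itself bears on these values. When the cells were chosen with each gene left out of the panel, the ratio of that gene to the other goblet-sum cells was 2.55, 1.89 and 1.84 for Mptx1, 1.79, 1.76 and 1.77 for Retnlb and 1.23, 1.15 and 1.31 for Klk1. All were thus above 1 in the 3 libraries, but the ratio of Mptx1 was far under the 6.48, 5.68 and 5.86 found with Mptx1 in the panel.

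**Figure D2:**
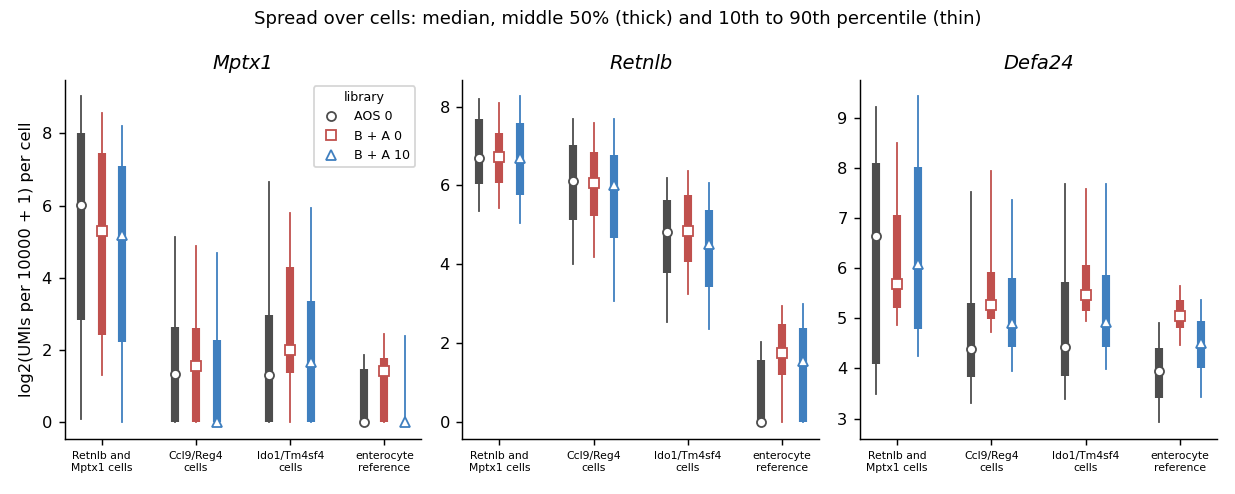
Levels of Mptx1, Retnlb and Defa24 per cell, on the log2(UMIs per 10000 + 1) scale, in 4 kinds of cell and 3 libraries, with the median as a symbol, the middle 50% of cells as a thick bar and the 10th to 90th percentile as a thin line. Mptx1 and Defa24 spread widely within the Retnlb/Mptx1 cells, from a 10th percentile of 0.0618 to a 90th of 523 UMIs per 10000 for Mptx1 in AOS 0, while Retnlb is more even.

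Guca2a and Ccl6 were part of the description of these cells but not of the rule. Guca2a (chr4:119637704-119639471, plus strand) was at 126, 110 and 104 UMIs per 10000, above the Ido1/Tm4sf4 cells (71.0, 68.2 and 56.4) and below the Ccl9/Reg4 cells (149, 135 and 119). Ccl6 (chr11:83587882-83593087, minus strand) was at 62.7, 60.0 and 54.9 and was highest in the Retnlb/Mptx1 cells in every library, with 39.5, 43.6 and 41.1 in the Ccl9/Reg4 cells and 46.1, 49.3 and 38.2 in the Ido1/Tm4sf4 cells. Ccl6 was thus 1.29-fold to 1.47-fold the level of all other goblet-sum cells, whereas Guca2a was above the Ido1/Tm4sf4 cells alone. Muc2, the main mucin, was in between, with 109, 97.8 and 96.5 against 81.8, 81.3 and 79.9 in the Ccl9/Reg4 cells and 155, 143 and 139 in the Ido1/Tm4sf4 cells.

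Few genes were particular to the Retnlb/Mptx1 cells. Against the Ccl9/Reg4 cells, 4 of 1668 genes with at least 100 UMIs were higher by 1.5-fold or more in all 3 libraries (0.240%) and 28 were lower (1.68%). The 4 were Mptx1, Reg1, Sval1 and Clps. Against the Ido1/Tm4sf4 cells, 234 of 1755 genes were higher (13.3%) and 48 were lower (2.74%). Only Mptx1 and Reg1 were higher by 1.5-fold or more than in both other kinds in all 3 libraries. By any amount, 1.09% of 1565 genes were above both kinds in all 3 libraries. The cells in which Ido1, Tm4sf4 and Gsta4 were highest therefore stood further from the Retnlb/Mptx1 cells than those with Ccl9, Reg4 and Fkbp11.

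Reg1 led the genes outside the rule by its lowest ratio over the 3 libraries, and Sval1 was high in 2 of them. Reg1, a secreted C-type lectin of the regenerating family, was 2.74-fold, 2.62-fold and 1.90-fold the level of the other goblet-sum cells. Its level was low, at 2.44, 2.25 and 2.53 UMIs per 10000, and the enterocyte reference held 17.8, 23.5 and 20.1. Sval1, named for a likeness to the seminal vesicle antigen, was 1.88-fold, 1.86-fold and 1.15-fold. Its level was 5.47, 3.40 and 2.21 UMIs per 10000 in the Retnlb/Mptx1 cells and 0.0275, 0.0431 and 0.0534 in enterocytes, and in the Ido1/Tm4sf4 cells it was 4.33, 1.97 and 2.22, so in B + A 10 these cells held as much. Reg3g and Reg3b, antibacterial lectins of the same family as Reg1, were at 155, 166 and 116 and at 135, 166 and 121. Their ratios to the other goblet-sum cells were 1.41 to 1.61 and 1.26 to 1.59, but both were higher still in enterocytes, with 182 to 232 and 244 to 298. The part of free RNA or of attached enterocytes in the Reg genes was not tested.

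Scin, which encodes the actin-severing protein scinderin, and Itln1, the lectin intelectin, were also higher than in the other goblet-sum cells as a whole. Scin was at 3.83, 3.17 and 3.47 UMIs per 10000, or 1.33-fold to 1.46-fold the other goblet-sum cells, and Itln1 at 43.3, 35.7 and 40.3, or 1.25-fold to 1.74-fold. Mmp7, the protease that activates α-defensins in Paneth cells, was at 3.98, 3.58 and 2.36, with ratios of 1.15, 1.51 and 2.35. Against the Ccl9/Reg4 cells alone Itln1 was level in B + A 0 (33.5, 35.5 and 27.9 in those cells), and Mmp7 was below them in AOS 0 (5.29, 3.42 and 1.69). Pigr, the receptor that carries IgA through the epithelium, had ratios of 1.19 to 1.5. Among the genes that were lowest in the Retnlb/Mptx1 cells against all other goblet-sum cells were Cldn4 (claudin 4, a tight junction protein; ratios of 0.376 to 0.389), Mxd1 (0.410 to 0.495), Prr15, S100a6, Cd59a, Cmtm8, Espn, Krt20 and Sqstm1. Cldn4 was low against the Ido1/Tm4sf4 cells alone, as it was at 1.38 to 1.66 times the Ccl9/Reg4 cells, while Sqstm1 was below both other kinds in each library.

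Genes of protein synthesis and secretion placed the Retnlb/Mptx1 cells between both other kinds. Of 1565 genes with enough UMIs in both comparisons, 45.6% lay below the Ccl9/Reg4 cells and above the Ido1/Tm4sf4 cells in all 3 libraries, and 3.71% lay the other way round. Of the ribosomal protein genes 79 of 79 were between, and they made up 9.12%, 8.69% and 9.37% of all UMIs in the Retnlb/Mptx1 cells, 11.9% to 12.4% in the Ccl9/Reg4 cells and 3.8% to 4.27% in the Ido1/Tm4sf4 cells. Of the genes for the translocon and transport from the endoplasmic reticulum to the Golgi, 31 of 33 were between. Sec61b, a subunit of the translocon, was at 8.61, 9.70 and 9.94 UMIs per 10000, against 13.9, 15.8 and 13.7 and against 4.96, 4.68 and 4.69. Of the genes for folding in the endoplasmic reticulum and the unfolded protein response, 22 of 27 were between, such as Hspa5, the chaperone BiP, at 5.89, 6.89 and 7.35 against 8.92, 11 and 9.3 and against 4.24, 4.59 and 4.01. Pdia5, a disulfide isomerase, was at 0.902, 0.816 and 0.638 against 2.22, 1.62 and 1.52 and against 0.218, 0.171 and 0.156.

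Mucin glycosylation was also between in 10 of 15 genes. C1galt1c1, the chaperone of the enzyme that makes core 1 O-glycans, was at 3.68, 2.78 and 2.62 UMIs per 10000 in the Retnlb/Mptx1 cells, at 4.16, 3.64 and 2.89 in the Ccl9/Reg4 cells and at 1.84, 1.43 and 1.68 in the Ido1/Tm4sf4 cells. Slc35a1, the carrier of the sialic acid donor into the Golgi, was at 0.805, 0.877 and 0.971 against 1.43, 1.45 and 1.34 and against 0.306, 0.281 and 0.284. Granule and exocytosis genes did not follow, with 1 of 9 between, and their median ratio was 1.03 to 1.08 against the Ccl9/Reg4 cells and 0.767 to 0.805 against the Ido1/Tm4sf4 cells. Rab27a, a small GTPase of secretory granules, was at 0.748, 0.842 and 0.793 UMIs per 10000 in the Retnlb/Mptx1 cells and 1.37, 1.14 and 1.33 in the Ido1/Tm4sf4 cells.

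**Figure D3:**
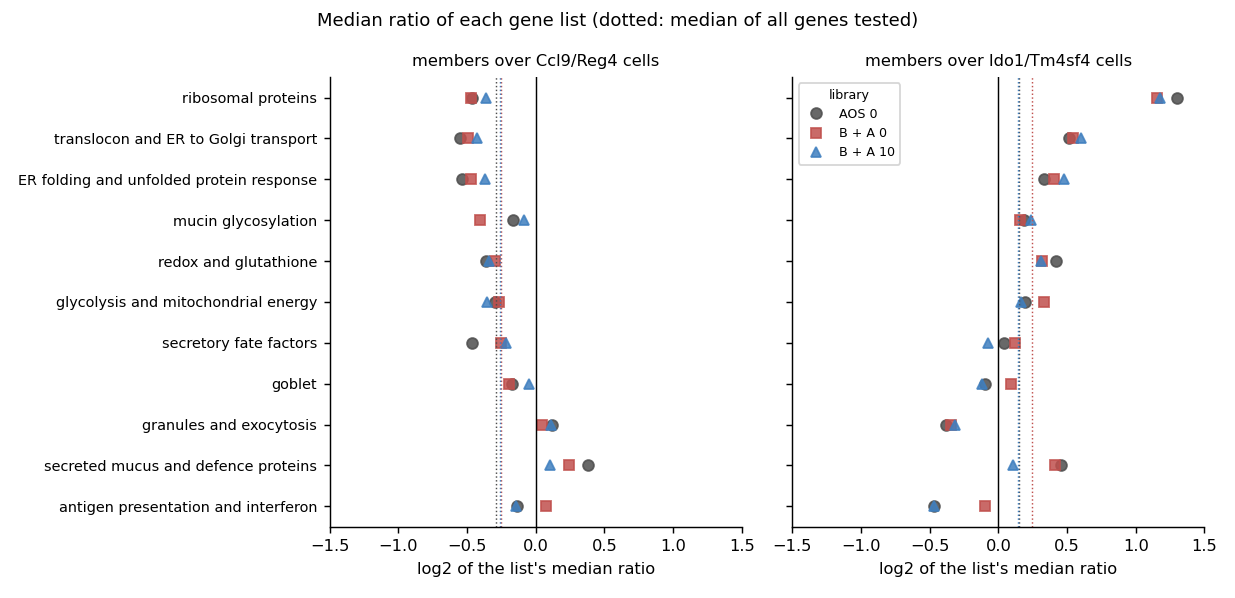
Log2 of the median ratio of each gene list, Retnlb/Mptx1 cells over Ccl9/Reg4 cells (left) and over Ido1/Tm4sf4 cells (right), with a symbol for each library and dotted lines for the median of all genes tested. Ribosomal, translocon and folding genes lie left of 0 in the first panel and right of 0 in the second, while granule and exocytosis genes lie near 0 and left of it.

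Transcription factors of the secretory lineage were mostly lower than in the Ccl9/Reg4 cells, as were most genes, and by less than 1.5-fold. Of 10 tested, 7 were below these cells in all libraries, beside 1084 of all 1668 genes tested, so these factors did not stand out. Of the 7, 1 was lower by 1.5-fold or more, beside 1.68% of all genes. Of 8 tested against the Ido1/Tm4sf4 cells none passed 1.5-fold in all libraries, beside 13.3% of all genes higher and 2.74% lower. Atoh1, which commits cells to the secretory lineage, was at 1.52, 1.72 and 1.66 UMIs per 10000, against 2.15, 1.93 and 1.67 and against 2.37, 1.73 and 2.27. Spdef, a factor of goblet cell maturation, was at 0.865, 1.05 and 0.808 against 1.46, 1.25 and 1.20 and against 0.905, 0.870 and 0.955. The gene that passed was Creb3l4, a membrane-bound factor related to Creb3l1, at 0.707, 0.532 and 0.465 against 1.19, 0.792 and 0.763. Klf4, a factor of goblet cell differentiation, was at 3.52, 3.57 and 3.26, against 3.02, 3.03 and 2.81 and against 5.50, 4.70 and 4.89.

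Genes of the response to type 2 cytokines were mostly too low to read. Of 22 genes on that list 15 were in the table and 3 had at least 100 UMIs in the comparison with the Ccl9/Reg4 cells. Itln1 was described above, Ang4 was at 1.67, 2.73 and 1.64 UMIs per 10000, and the receptor chain Il13ra1 was at 1.13, 0.702 and 0.798, against 2.61, 1.65 and 1.89 in enterocytes. Of the genes that mark the proximal or distal small intestine, 2 and 2 reached that number, and none was past 1.5-fold in all libraries in either comparison. Of all genes, 0.240% were higher and 1.68% lower against the Ccl9/Reg4 cells, and 13.3% and 2.74% against the Ido1/Tm4sf4 cells.

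The α-defensin Defa24 ran through the Retnlb/Mptx1 cells although cells with very high defensins had been dropped. Its mean was 207, 136 and 205 UMIs per 10000. The Ccl9/Reg4 cells held 71.6, 92.7 and 78.6, the Ido1/Tm4sf4 cells 74.7, 99.0 and 87.6, and the enterocyte reference 17.2, 38.8 and 26.6. The lowest, median and highest Retnlb/Mptx1 cells were at 3.14, 99.0 and 1230 in AOS 0, while those of B + A 0 were at 11.3, 50.5 and 1130 and those of B + A 10 at 7.86, 67.4 and 1230. Above the 95th percentile of enterocytes of the same library were 61.6% (53.9 to 68.9), 46.5% (38.4 to 54.6) and 56.1% (49.5 to 62.5) of the Retnlb/Mptx1 cells, compared with 25.9% to 27.1% of the Ccl9/Reg4 cells and 27.5% to 34.0% of the Ido1/Tm4sf4 cells. A part of the Retnlb/Mptx1 cells thus held Defa24 above nearly all enterocytes of the library.

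The defensin signal was not of the same make-up as in the defensin cells. In these 489 cells Defa24 made up 52.6%, 47.7% and 43.4% of all Defa UMIs and there were 8.92, 10.4 and 14.4 Defa24 UMIs for each UMI of Lyz1, the lysozyme of Paneth cells. In the Retnlb/Mptx1 cells Defa24 made up 86.6%, 78.5% and 81.0%, with 41.0, 16.2 and 32.6 UMIs for each Lyz1 UMI. In the enterocyte reference the share was 62.3%, 63.5% and 57.5% and the ratio 9.60, 7.21 and 10.3. Per UMI of Mptx2, the pentraxin of Paneth cells, Defa24 had 216, 107 and 479 UMIs in the Retnlb/Mptx1 cells and 13.7, 20.5 and 38.8 in the defensin cells. Lyz1 itself was at 5.29, 8.73 and 6.12 UMIs per 10000 in the Retnlb/Mptx1 cells and at 1.77, 5.42 and 2.55 in enterocytes. The higher share of Defa24 over other Defa genes held in the other goblet-sum cells too, with 73.1% to 83.1%. Reads of near-identical Defa genes may be split among them by the counting, so the identity of single Defa genes is uncertain.

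**Figure D4:**
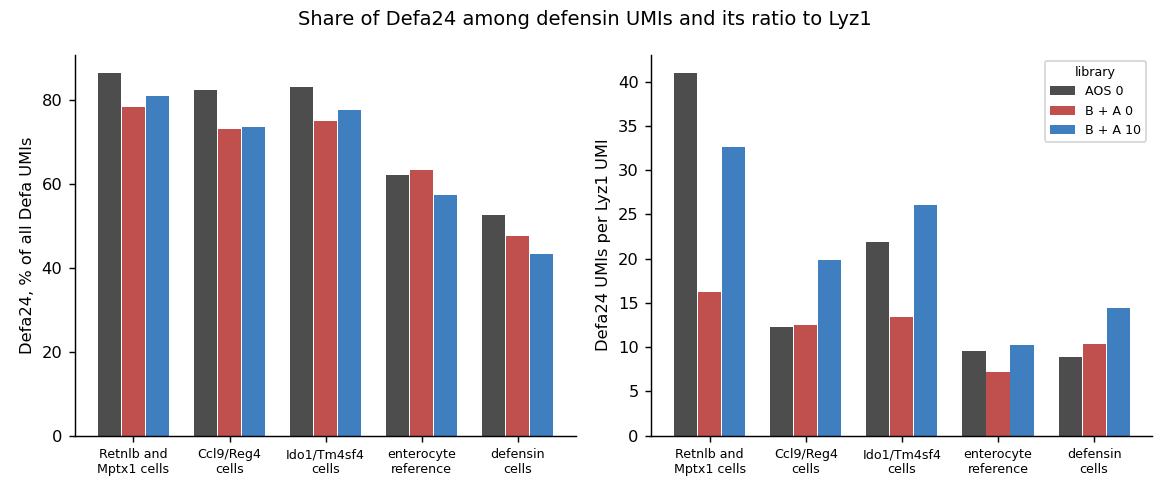
Share of Defa24 among all Defa UMIs in percent (left) and Defa24 UMIs per Lyz1 UMI (right) from summed counts in 5 kinds of cell, with a bar for each library and no error bar. Defa24 is 78.5% to 86.6% of Defa UMIs in the Retnlb/Mptx1 cells and 43.4% to 52.6% in the cells with a defensin sum of 1500 or more.

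Cells with more Mptx1 also held more Defa24 and less of the Reg3 lectins and Muc2. Spearman's rho of Mptx1 with Defa24 was 0.39, 0.32 and 0.37 across the Retnlb/Mptx1 cells, and with Reg3g it was -0.44, -0.36 and -0.37. With Muc2 it was -0.25, -0.42 and -0.40. In the cells of each library ranked above the median of Mptx1, Defa24 was at 290, 171 and 289 UMIs per 10000 and in those below it at 124, 102 and 121. Reg3g was at 93.7, 114 and 81.9 in the upper set and at 215, 218 and 150 in the lower set. Muc2 was at 94.1, 76.8 and 74.9 against 125, 118 and 118, and Itln1 at 56.4, 42.9 and 48.2 against 30.1, 28.7 and 32.4. These directions were the same in each of the 3 libraries. The cells were chosen on Mptx1, and over all goblet-sum cells rho of Mptx1 was weaker with Reg3g (-0.26, -0.13 and -0.18) and with Muc2 (-0.15, -0.17 and -0.17) and similar with Defa24 (0.38, 0.33 and 0.34). Levels are shares of a cell's UMIs, so an abundant gene lowers the others by construction. The part of this in the differences above was not tested.

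Mptx1 and Retnlb were also present where defensins were low. With the 95th percentile of the summed Defa level in enterocytes as a limit (60.8, 82.2 and 83.8 UMIs per 10000), 41.3%, 54.2% and 48.1% of the Retnlb/Mptx1 cells were at or under it. Mptx1 was at 98.8, 85 and 59.1 in them and at 206, 183 and 123 in the cells above the limit. Retnlb was at 115, 109 and 117 against 165, 157 and 170, and Klk1 at 10.1, 9.28 and 8.65 against 12.6, 9.07 and 9.05. Mptx1 in the low-defensin cells was above its mean in the Ccl9/Reg4 and the Ido1/Tm4sf4 cells. The rule chose the low-defensin cells on Mptx1 too, and the other kinds were not split by defensins. This comparison is therefore a description only.

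Among the genes that define the Retnlb/Mptx1 cells, Mptx1 had the ratio furthest from 1 in both comparisons of B + A 10 with another library. In B + A 0 over AOS 0 this was Klk1. The ratio of a gene's share of all UMIs in these cells was 0.838 for Mptx1 in B + A 0 over AOS 0 (0.820 to 0.855), 0.707 in B + A 10 over B + A 0 (0.689 to 0.726) and 0.593 in B + A 10 over AOS 0 (0.578 to 0.607). The same ratios in the other goblet-sum cells were 0.956, 0.685 and 0.655. In all cells outside the goblet sum, which include most of the defensin cells with their abundant Mptx1, they were 1.56, 0.419 and 0.656. In the enterocyte reference they were 3.29, 0.328 and 1.08. Retnlb had ratios of 0.920, 1.15 and 1.06 and Klk1 of 0.793, 0.956 and 0.759, and Guca2a had 0.863, 0.978 and 0.845 and Ccl6 0.982, 0.925 and 0.908. Mptx1 passed 1.5-fold in B + A 10 over AOS 0, and none of the other 4 genes did in any comparison. The medians of Mptx1 over cells, 64.3, 38.1 and 35.6, lay far inside the spread over the cells of each library, and cells are not replicates.

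Across all genes in the Retnlb/Mptx1 cells, few were past 1.5-fold. Of 2115 genes with at least 100 UMIs in both libraries together, 39 were higher in B + A 0 than in AOS 0 (1.84%) and 60 lower (2.84%). In B + A 10 over B + A 0, 28 of 1735 were higher (1.61%) and 28 lower (1.61%). In B + A 10 over AOS 0, 77 of 2044 were higher (3.77%) and 86 lower (4.21%). With totals that left out ribosomal protein, defensin and rule genes, the last 2 comparisons had 39 higher and 22 lower, and 97 higher and 64 lower. Many of the genes named below moved by a like amount in cells outside the goblet sum.

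The interferon-induced gene Ifi27l2b was highest in the B + A 10 library. Ifi27l2b was at 15.2, 8.06 and 28.0 UMIs per 10000, which is 3.49-fold higher in B + A 10 than in B + A 0 (3.22 to 3.78). Outside the goblet sum this ratio was 5.08. Ifit1, also interferon-induced, was at 1.53, 1.40 and 2.33, or 1.62-fold higher (1.30 to 2.01), with 1.72 outside. The cells outside the goblet sum thus moved by a like or larger amount. In B + A 10 over B + A 0, 14 genes of antigen presentation and the interferon response were tested. Of these, Ifit1 alone was higher by 1.5-fold, beside 1.61% of all genes, and none was lower, also beside 1.61%. The median ratio was 0.941 beside 0.981 over all genes.

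Defa24 and Defa17 went against their libraries. Defa24 was at 0.652 in B + A 0 over AOS 0 (0.639 to 0.664) in the Retnlb/Mptx1 cells, and at 1.36 in the other goblet-sum cells and 2.11 outside the goblet sum. In B + A 10 over B + A 0 it was at 1.56 (1.53 to 1.60), and at 0.860 and 0.537. The ratios of the Retnlb/Mptx1 cells kept their direction but were short of 1.5-fold with panels standardized within each library (0.678 and 1.498), and the first also after thinning (0.724). Defa17 had 1.92 (1.81 to 2.03) in the latter comparison, and 0.867 and 0.680. Levels of Defa24 in the Retnlb/Mptx1 cells were thus lowest in B + A 0, where the rest of the cells held most. By contrast Defa29, Defa35 and Defa37 were 2.08-fold, 2.07-fold and 2.54-fold higher in B + A 0 than in AOS 0 in the Retnlb/Mptx1 cells and 2.14-fold, 2.63-fold and 2.41-fold outside the goblet sum. In B + A 10 over B + A 0 their ratios were 0.467, 0.506 and 0.526, with 0.471 to 0.528 outside. These 3 genes followed their libraries. The difference between kinds of cell was not tested, since there was 1 library per group.

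Sval1 fell in steps across the libraries. The Retnlb/Mptx1 cells held 820, 352 and 198 Sval1 UMIs, with ratios of 0.584 (0.514 to 0.662) for B + A 0 over AOS 0, 0.613 (0.512 to 0.732) for B + A 10 over B + A 0 (0.706 to 0.738 under 3 other choices of cells) and 0.358 (0.305 to 0.418) for B + A 10 over AOS 0. In the other goblet-sum cells the ratios were 0.591, 0.990 and 0.585. After thinning, Sval1 was found in 29.1% (22.4 to 36.5), 23.9% (17.4 to 31.4) and 11.7% (7.93 to 16.5) of the Retnlb/Mptx1 cells. Reg4, a lectin of the panel of Ccl9, had 0.497 for B + A 0 over AOS 0 (0.431 to 0.571), and 0.574 in the other goblet-sum cells against 1.11 outside. Dmbt1, a mucosal scavenger receptor, had 0.511 (0.412 to 0.630), but 0.689 with a panel lead of 0.5, 0.784 after thinning and 0.861 with high doublet scores left out, so its call was lost. Hmgcs1, an enzyme of cholesterol synthesis, had 0.554 (0.454 to 0.674), and 0.630 outside the goblet sum.

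**Figure D5:**
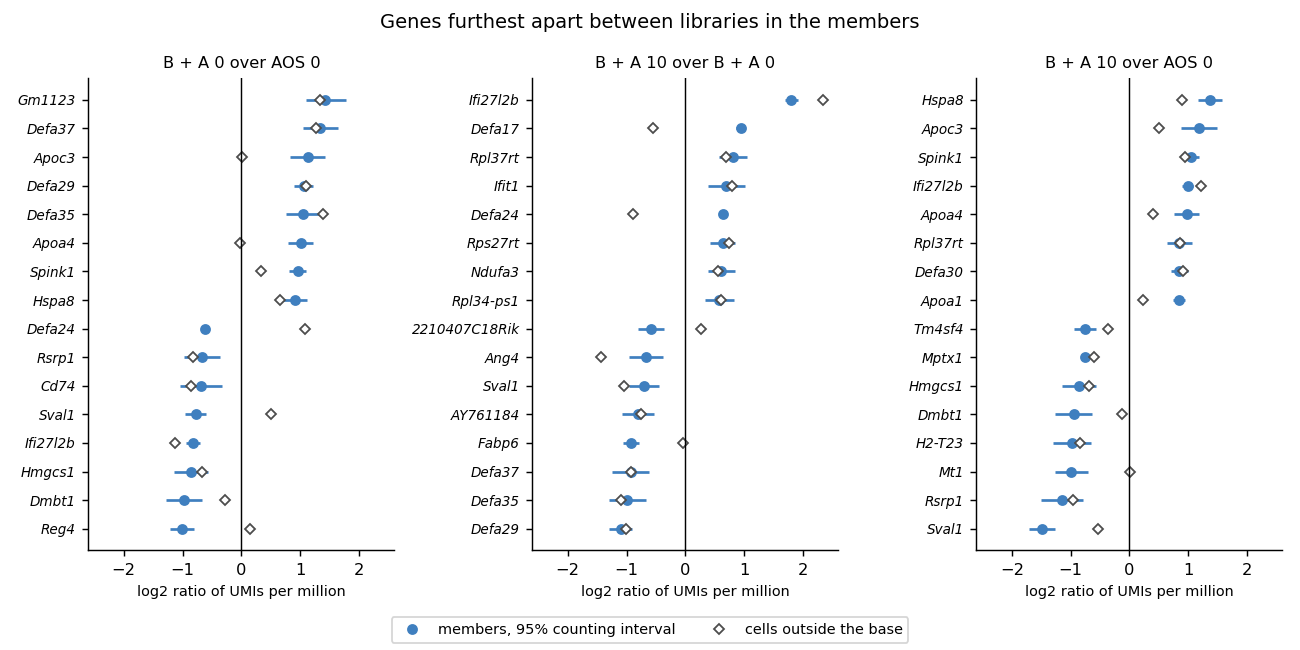
Log2 ratio of a gene's share of all UMIs between 2 libraries for the 8 genes with the largest and the 8 with the smallest ratio in the Retnlb/Mptx1 cells, among genes with at least 300 UMIs, with 95% counting intervals (filled circles) and the same ratio in cells outside the goblet sum (open diamonds). Defa24 lies on opposite sides of 0 in the 2 kinds of cell in both of the first comparisons, while Ifi27l2b, Defa29, Defa35 and Defa37 lie on the same side.

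Genes of other cells were among those furthest apart. The apolipoprotein genes Apoa4 and Apoc3 of enterocytes were 2.01-fold (1.74 to 2.32) and 2.18-fold (1.77 to 2.69) higher in B + A 0 than in AOS 0 in the Retnlb/Mptx1 cells, while their ratios were 1.30 and 1.69 in the other goblet-sum cells and 0.985 and 1.0 outside the goblet sum. In B + A 10 over AOS 0 Apoa1, Apoa4 and Apoc3 were at 1.79, 1.96 and 2.26, and at 2.08, 2.28 and 2.77 in the other goblet-sum cells. After thinning Apoa1 and Apoa4 were at 2.80 and 3.09. Their levels stayed far under those of enterocytes, with Apoa1 at 11.9, 19.5 and 19.8 UMIs per 10000 against 306, 235 and 260. The trypsin inhibitor gene Spink1 was at 1.94 in B + A 0 over AOS 0 (1.76 to 2.13) and 2.07 in B + A 10 over AOS 0 (1.88 to 2.28). Fabp6, the bile acid binding protein of the ileum, was at 0.527 in B + A 10 over B + A 0 (0.479 to 0.580) but at 1.87 in the other goblet-sum cells, at 0.910 with panels standardized within each library, and at 1.44 when the Retnlb/Mptx1 cells were chosen after thinning. The enterocyte list as a whole was detected with 14 of 14 genes and a sum of 67.9, 83.9 and 77.9 in the Retnlb/Mptx1 cells against 1300, 1080 and 1140 in the enterocyte reference, and its part in these ratios was not tested.

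Among other named genes, the chaperone gene Hspa8 rose over both libraries of busulfan-treated mice, at 1.88 in B + A 0 over AOS 0 (1.62 to 2.18) and 2.57 in B + A 10 over AOS 0 (2.23 to 2.97), with 1.58 and 1.87 outside the goblet sum. Gm1123 was at 2.69 in B + A 0 over AOS 0 (2.13 to 3.42), with 2.54 outside. Cd74 and Rsrp1 were at 0.625 and 0.631 in B + A 0 over AOS 0, where Cd74 was at 0.711 as a mean over cells and at 0.821 with high doublet scores left out, and Rsrp1, Mt1 (metallothionein), H2-T23 and Tm4sf4 were at 0.453, 0.504, 0.509 and 0.594 in B + A 10 over AOS 0. Of these, Mt1 was at 1.0 outside the goblet sum and at 1.06 in the other goblet-sum cells, but in the Retnlb/Mptx1 cells it was at 0.816 after thinning and 0.707 with high doublet scores left out, so its call was lost, with levels of 2.43, 1.89 and 1.51 UMIs per 10000. Of the remaining genes named by the rule, Rpl37rt, Rps27rt, Ndufa3 and Rpl34-ps1 were at 1.49 to 1.75 in B + A 10 over B + A 0 and AY761184, Ang4 and 2210407C18Rik at 0.575 to 0.664. Rps27rt, Ndufa3, Ang4 and 2210407C18Rik were each short of 1.5-fold under at least 1 alternative. Rpl37rt and Defa30 were at 1.80 and 1.79 in B + A 10 over AOS 0, where Defa30 was at 1.34 with a panel lead of 0.5.

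The goblet markers with enough UMIs moved little between libraries, as did most genes. St6galnac1, with 17, 1 and 0 UMIs in the Retnlb/Mptx1 cells, had too few to be tested. Of the goblet markers, 0 of 23 tested were past 1.5-fold in B + A 0 over AOS 0, 0 of 22 in B + A 10 over B + A 0 and 0 of 23 in B + A 10 over AOS 0. Of all genes tested, 1.84% were higher and 2.84% lower, 1.61% and 1.61%, and 3.77% and 4.21%. The markers were thus near the shares of all genes and did not stand out. Their median ratios were 0.970, 0.938 and 0.891 beside 0.978, 0.981 and 0.958 over all genes tested. Of the folding genes of the endoplasmic reticulum, Creld2 and Sel1l were higher in B + A 0 than in AOS 0, 2 of 28 beside 1.84% of all genes, and none was lower, with a median of 1.08. In B + A 10 over AOS 0 Pdia4, Creld2 and Dnajb9 were higher, 3 of 28 beside 3.77%, and Pdia3 was lower, 1 of 28 beside 4.21%. Of the translocon genes Sar1b was lower in both busulfan libraries than in AOS 0, 1 of 36 and 1 of 35 beside 2.84% and 4.21%. Of the p53 targets 5 were tested, and Bax was lower in B + A 0 than in AOS 0, 1 of 5 beside 2.84%. No other p53 target passed 1.5-fold in any comparison. Of the secretory fate factors Dll1, a Notch ligand, was lower in B + A 0 than in AOS 0, 1 of 11 beside 2.84%. Single calls in lists this small are descriptions only. Of the mucin glycosylation genes none of 18 and none of 16 was past 1.5-fold in the first 2 comparisons. In B + A 10 over AOS 0, 2 of 17 were lower, St3gal6 among them, beside 4.21% of all genes. Of the secreted mucus and defence proteins, 16 tested, Ang4 and Lyz1 were higher in B + A 0 than in AOS 0, beside 1.84% of all genes, and Sval1 and Dmbt1 lower, beside 2.84%. The ratio of Lyz1 was 1.65 in the Retnlb/Mptx1 cells, 1.59 in the other goblet-sum cells and 1.82 outside the goblet sum. Mptx2, Reg3a, Sval1 and Dmbt1 were lower in B + A 10 than in AOS 0, 4 of 16 beside 4.21%. Mptx2 was at 0.459 there, with 44 against 142 UMIs, and at 0.400 outside the goblet sum. Lyz1 and Mptx2 thus moved by a like amount outside these cells. The call of Dmbt1 was lost in both comparisons after thinning and with high doublet scores left out. Of 79 ribosomal protein genes none was past 1.5-fold in the first 2 comparisons. In B + A 10 over AOS 0, 6 of the 79 were higher and 1 lower, beside 3.77% and 4.21% of all genes.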

How the data were processed

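Small intestinal cells were measured by 10x Genomics 3′ v2 droplet sequencing. The authors made counts with Cell Ranger 2.2.0 on mm10 with 5000 forced cells, removed cells under 200 genes and genes in fewer than 3 cells, and deposited the natural log of 1 plus UMIs per 10000 UMIs of a cell (13891 genes, no mitochondrial genes). UMIs were recovered from the low values (100% whole within 0.01).

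Members and gene lists were chosen with earlier results of these data known. Levels are means over cells, ratios are from a gene's share of summed UMIs, and a gene was counted past 1.5-fold where both sets together held at least 100 UMIs (in each library, for kinds of cell). Named genes were the rule genes and markers, listed genes, the 20 largest and 10 smallest ratios to other goblet-sum cells, and the 8 largest and smallest ratios between libraries (at least 300 UMIs). Intervals are exact binomial or Newcombe's, at 95%. The precision follows the summed depth of the members, 1384695, 1018772 and 934921 UMIs. Doublets were kept; Scrublet (scanpy 1.11.5) called 18 cells by its own threshold, which was not used. Computation was in Python 3.11.15 (pandas 2.3.3, scipy 1.17.1, numpy 2.4.6), and the ratio step was tested on simulated data. Alternatives were other cell choices, totals, count minimums and doublets left out. Promoters are RefSeq's (GRCm38.p6), gene positions GENCODE's. A few listed genes are not reported here.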

Additional observations from a re-analysis of the deposited data

How the results depend on the processing

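With 1 library per group, differences between libraries hold no spread between mice. No paired analysis was possible because each group had 1 library. The share of Retnlb/Mptx1 cells in the goblet sum moved outside its counting interval when the panel had to lead by 0.5 (15.8%, 19.8% and 17.0% in the 3 libraries), after thinning to 1000 UMIs (31.1% in AOS 0 and 33.0% in B + A 10) and without Mptx1 in the panel (31.5% in AOS 0). The mean ratio to the other goblet-sum cells, left out of its own panel, was 2.10 for Mptx1, 1.78 for Retnlb and 1.23 for Klk1. With a lead of 0.5 that of Mptx1 was 7.32, and after thinning that of Retnlb was 2.16. Counts past 1.5-fold followed the count minimum by construction. With at least 50 UMIs they were 143 higher and 214 lower (B + A 0 over AOS 0), 119 and 109 (B + A 10 over B + A 0), and 210 and 283 (B + A 10 over AOS 0), and with at least 300 UMIs they were 14 and 9, 7 and 8, and 27 and 21. In B + A 0 over AOS 0 the balance turned, with 41 higher and 29 lower at a lead of 0.5 and 54 higher and 37 lower with high doublet scores left out. After thinning, genes higher were 46 in B + A 10 over B + A 0 and 122 in B + A 10 over AOS 0. The cause was not tested. Fabp6 turned to 1.44 in B + A 10 over B + A 0 after thinning. Among ratios of named genes, 232 of 288 moved less than their limit under the 6 settings that can change them.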

Other observations

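St6galnac1, which encodes a sialyltransferase that caps mucin O-glycans, was near 0 in both libraries of busulfan-treated mice. Over all cells it had 1507 UMIs in 687 of 4106 cells of AOS 0 (42.7 per 1000000 UMIs, 95% exact Poisson interval 40.6 to 45.0), 19 UMIs in 18 of 3195 cells of B + A 0 (0.730, 0.439 to 1.14) and 3 UMIs in 3 of 5352 cells of B + A 10 (0.130, 0.0269 to 0.381). In the Retnlb/Mptx1 cells it had 17, 1 and 0 UMIs, and in all goblet-sum cells 110, 2 and 0. The gene was singled out after its values were seen, and with 1 library of pooled outbred mice per group the treatment and the mice cannot be told apart.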
